A study of Caenorhabditis elegans with 4 samples.

Results

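The *Caenorhabditis elegans* genes *hlh-30*, *wdr-23* and *mlk-1* were each named as the nearest gene of 1 peak in a list of 365 peaks of DNA N6-methyladenine (6mA). These 3 peaks were chosen by their gene names, with the list in view, so their presence in it, their class and their position are descriptions and were not tested. The list came from methylated DNA immunoprecipitation sequencing, in which an antibody enriches DNA fragments that carry the modified base and regions of piled-up fragments are called as peaks. The study held 4 libraries of genomic DNA from whole wild-type animals (strain Bristol) at the L4 larval stage, raised at 22 °C. Untreated animals gave 1 library with the antibody and 1 without. Animals grown with antimycin A, which blocks complex III of the respiratory chain, gave the same pair, labelled 1.92 µM (the title of the antibody library reads 1.93 µM). All peak names begin with PO_AA_rep1, a prefix that is not spelled out in the labels, so the list was assigned to none of these libraries and no value below is attributed to treated or untreated animals. No peak carries a height, read count or error, and no value has replicates. The depth behind the peaks is unknown.

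All 3 genes encode regulators of stress responses, in separate pathways. HLH-30, the worm's TFEB-like transcription factor, moves into the nucleus during starvation and other stresses and switches on autophagy and lysosomal genes. WDR-23 is a WD40-repeat protein that works with the CUL-4/DDB-1 ubiquitin ligase to keep SKN-1, the worm's Nrf-like factor for oxidative and xenobiotic stress, at a low level. MLK-1 is a MAP kinase kinase kinase at the top of a JNK-like cascade with MEK-1 and KGB-1, known from heavy metal stress and axon regeneration, and the phosphatase VHP-1 switches that cascade off. 6mA is a common base of bacterial DNA and has been described at low levels in the worm genome.

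The peak of the transcription factor gene *hlh-30* spanned positions 4027978 to 4028466 of chromosome IV (build ce10) and was 489 bp wide. It lay 136 bp upstream of the nearest annotated transcription start, that of transcript NM_001028240. The peak of the kinase gene *mlk-1* spanned 5065075 to 5065577 of chromosome V, was 503 bp wide and lay 549 bp upstream of the start of NM_171456. The peak of the SKN-1 inhibitor gene *wdr-23* spanned 7595532 to 7595774 of chromosome I, was 243 bp wide and lay 873 bp upstream of the start of NM_059723. In order of distance, *hlh-30* thus came closest to its start, *mlk-1* lay 413 bp farther out, and *wdr-23* a further 324 bp beyond *mlk-1*. All 3 peaks carried the class promoter-TSS.

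**Figure D1:**
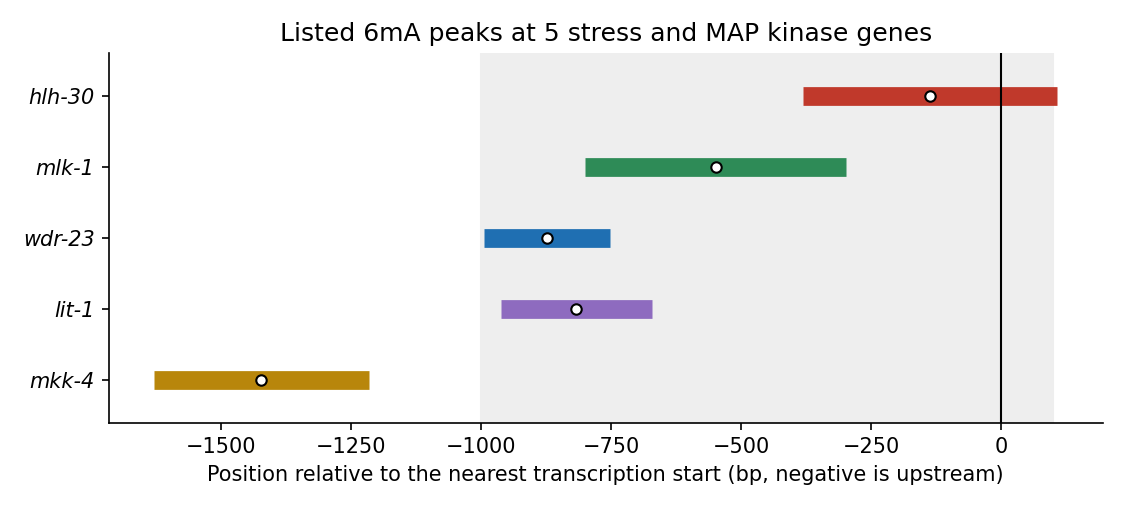
Spans of the listed peaks of 5 genes relative to the nearest transcription start (x axis, bp, negative is upstream), with a bar for the peak, a white point for the deposited distance taken as the peak's centre, a line at the start and grey from 1000 bp upstream to 100 bp downstream. The *hlh-30* bar crosses the start, those of *mlk-1*, *wdr-23* and *lit-1* lie inside the grey area upstream of it, and that of *mkk-4* lies outside.

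The point of a peak from which the deposited distance was measured is not given in the sources used here. Taken as the centre, the *hlh-30* peak ran from 380 bp upstream to 108 bp downstream of the start and so covered it. The *mlk-1* peak ran from 800 to 298 bp upstream, and the *wdr-23* peak from 994 to 752 bp upstream, so neither reached its start. Covering the start was the less common arrangement: 47 of 138 promoter peaks did so (34.1%, exact Clopper-Pearson 95% interval 26.2 to 42.6%). Of the 81 promoter peaks nearest to protein-coding genes, 14 did (17.3%, 9.78 to 27.3%), *hlh-30* among them. These intervals reflect counting error alone, with the list taken as it stands.

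Around the nearest start, the promoter class took in a full distance window. Each of the 123 nuclear peaks whose distance fell between 1000 bp on the upstream side and 100 bp on the downstream side of a start was a promoter peak. The other 15 of the 138 promoter peaks lay outside that window, up to 882 bp downstream of the nearest start (Y48C3A.3). Of these, 13 were annotated to another gene and 2 could not be compared. The farthest upstream promoter peak, at 990 bp, was that of the uncharacterized gene T07H3.8, and the next upstream peak, at 1004 bp and nearest to *scd-1*, was intergenic. Within this window the *wdr-23* peak sat near the outer limit. With the distance taken from the centre, its far edge was 6 bp short of 1000 bp. The window applies to the deposited distance and not to the edge, and the far edge of the T07H3.8 peak was at 1156 bp. Of the other 104 promoter peaks upstream of a start, 98 were closer to it than the *wdr-23* peak (94.2%, 87.9 to 97.9%) and 6 were farther. For *mlk-1*, 69 of 104 were closer (66.3%, 56.4 to 75.3%). For *hlh-30*, 15 of 104 were closer (14.4%, 8.30 to 22.7%). The median upstream promoter peak lay 409 bp from its start (quartiles 218 and 607 bp), so *hlh-30* fell below the lower quartile, *mlk-1* between the median and the upper quartile, and *wdr-23* beyond it.

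By width, the 3 peaks fell into a narrow one and a pair of similar, wider ones. Over the 138 promoter peaks the median width was 376.5 bp, the quartiles were 291.5 and 492.5 bp, and the extremes were 229 and 1362 bp. The narrowest of all 364 nuclear peaks was also 229 bp wide. The *wdr-23* peak, at 243 bp, was 0.645 times the promoter median and close to this lower limit of the list. Only 8 of the other 137 promoter peaks were narrower (5.84%, 2.55 to 11.2%). Its neighbours in the order of widths were those of the nuclear hormone receptor gene *nhr-237* (242 bp) and the ncRNA gene C06E1.14 (246 bp). The *hlh-30* peak, at 489 bp, was 1.30 times the median and just under the upper quartile, with 101 of 137 narrower (73.7%, 65.5 to 80.9%). The *mlk-1* peak, at 503 bp, was 1.34 times the median and just above the upper quartile, with 105 of 137 narrower (76.6%, 68.7 to 83.4%). The *hlh-30* and *mlk-1* peaks differed by 14 bp, and each was about 2.0 times as wide as that of *wdr-23* (2.01 and 2.07 times). Without replicate peak calls, no error can be set on any of these widths.

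**Figure D2:**
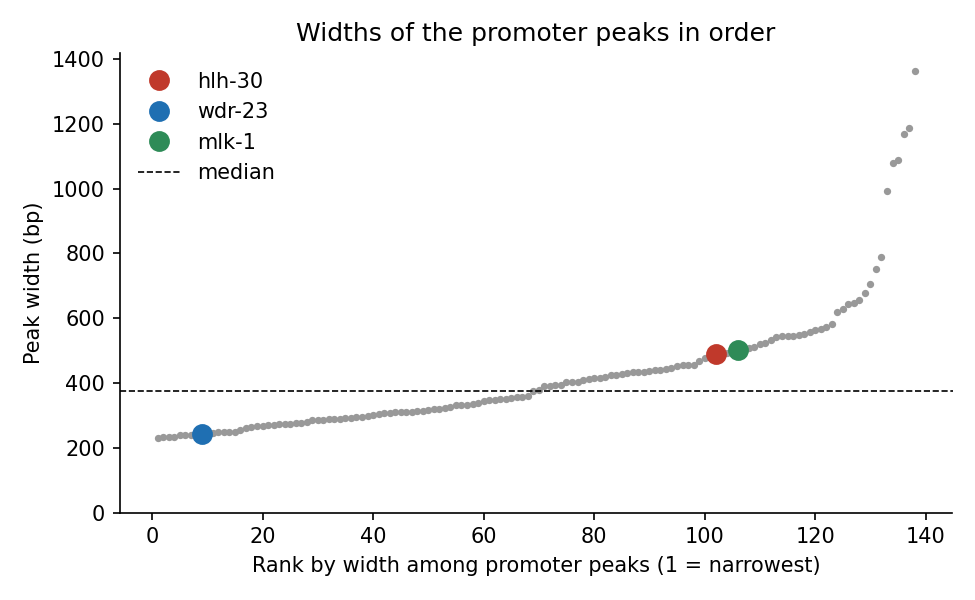
Widths of the 138 promoter peaks in bp (y axis) in order from the narrowest to the widest (x axis, rank), each point 1 peak, with the median of 376.5 bp as a dashed line. The *wdr-23* peak (243 bp) sits at the narrow end, and those of *hlh-30* (489 bp) and *mlk-1* (503 bp) sit near each other above the median and well under the widest peak (1362 bp).

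Width did not follow distance in a simple order among the promoter peaks. The 30 upstream peaks within 250 bp of a start, where *hlh-30* fell, had a median width of 390.5 bp. The 30 peaks between 250 and 500 bp had 328.5 bp, the 30 between 500 and 750 bp, where *mlk-1* fell, had 490 bp, and the 15 beyond 750 bp, where *wdr-23* fell, had 309 bp. The *mlk-1* peak was thus close to the median of peaks at its distance, the *hlh-30* peak wider than its own, and the *wdr-23* peak narrower than its own.

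Peaks most like each gene's peak were found by the summed difference in rank of width and of distance over the 138 promoter peaks. Of these 138, 81 were nearest to protein-coding genes, and this share differed with distance. Among the 15 upstream promoter peaks closer to a start than that of *hlh-30*, 6 were nearest to protein-coding genes. Among the 35 farther out than that of *mlk-1*, 30 were. Because distance was part of the match, the gene types below are not read as a trait of the 3 genes. For *hlh-30* they were 3 non-coding genes: *linc-91* (457 bp wide, 133 bp upstream, rank difference 5), Y48B6A.18 (493 bp, 64 bp upstream, 11) and T04F3.6 (546 bp, 143 bp upstream, 15). For *wdr-23* they were Y53G8B.2 (248 bp wide, 888 bp upstream, rank difference 5), F52E1.2 (240 bp, 953 bp upstream, 6) and the ncRNA gene C06E1.14 (246 bp, 764 bp upstream, 9). For *mlk-1* all 3 were protein-coding. R13A5.7 was the nearest (506 bp wide, 570 bp upstream, rank difference 5). It was followed by *pqn-92*, which the table describes as a prion-like Q/N-rich protein (533 bp, 601 bp upstream, 14), and *gsa-1*, the gene of the stimulatory G protein alpha subunit (545 bp, 591 bp upstream, 14.5).

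**Figure D3:**
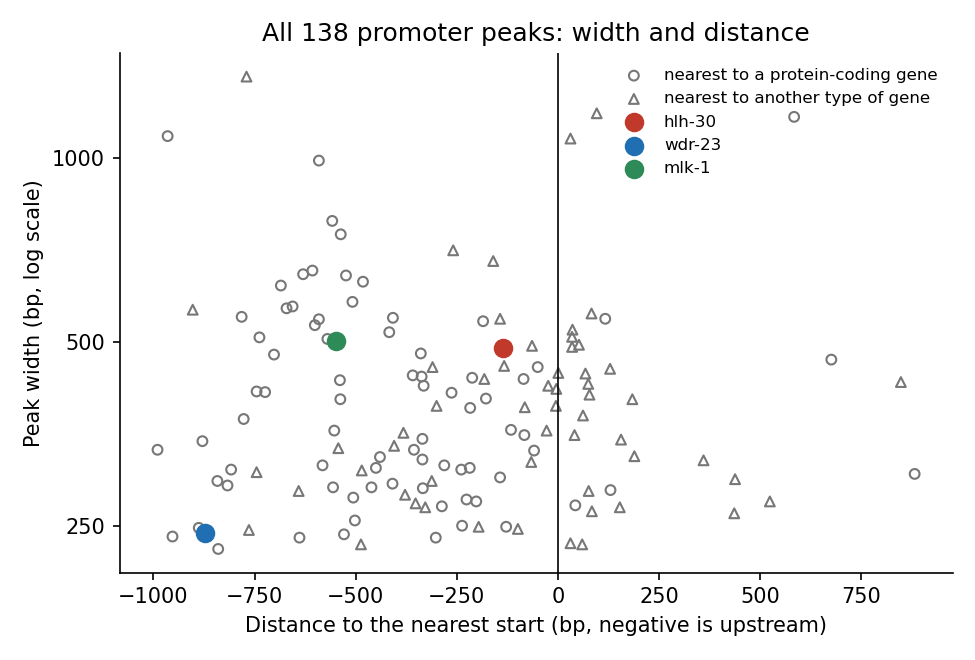
Width (y axis, bp, log scale) against distance to the nearest start (x axis, bp, negative is upstream) for the 138 promoter peaks, with circles for peaks nearest to protein-coding genes and triangles for the others. The *wdr-23* peak lies in the far, narrow corner, the *mlk-1* peak among protein-coding genes at 549 bp upstream, and the *hlh-30* peak close to the start among peaks of both kinds.

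The table names a transcript in the annotation class of a promoter peak and again as the nearest start, and the 3 genes showed the 3 ways in which these names can relate. For *wdr-23* both were NM_059723. This was the usual case, in 106 of 135 promoter peaks that could be compared (78.5%, 70.6 to 85.1%). For *mlk-1* the class named NM_171928 and the nearest start belonged to NM_171456, and the gene table assigns both to *mlk-1*. Such a pair of transcripts of 1 gene occurred in 7 of 135 peaks (5.19%, 2.11 to 10.4%). The others included *lin-66*, *nhr-237*, *rft-1* and the spectrin gene *spc-1*, singled out here after their values were seen. For *hlh-30* the class named NR_101902, which belongs to the non-coding RNA gene F35F11.4. A transcript of another gene was named in 22 of 135 promoter peaks (16.3%, 10.5 to 23.6%). Among the 79 comparable promoter peaks nearest to protein-coding genes it was named in 7 (8.86%, 3.64 to 17.4%), and in 5 of those 7 the other gene was non-coding.

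**Figure D4:**
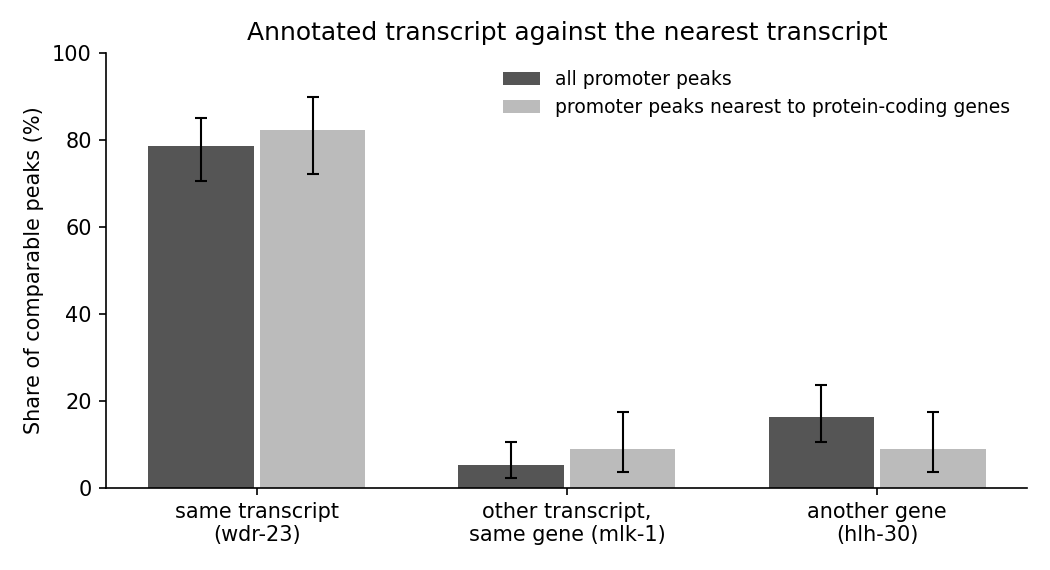
Share of comparable promoter peaks (y axis, %) whose annotated transcript is the one at the nearest start, another transcript of the same gene, or a transcript of another gene, with exact 95% binomial intervals as error bars. Dark bars are all 135 comparable promoter peaks and light bars the 79 nearest to protein-coding genes. The *wdr-23* peak belongs to the tallest pair of bars, at 78.5 and 82.3%.

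The gene structures behind these names differed. In the RefSeq gene table (assembly WBcel235, used for names and for the order of genes only), *hlh-30* has 10 transcripts, *wdr-23* has 5 and *mlk-1* has 4. The median protein-coding gene has 1, and 923 of 19983 (4.62%) have 4 or more. Among the 80 genes nearest to protein-coding promoter peaks, 11 (13.75%) have 4 or more. These 11 include *hlh-30*, *wdr-23* and *mlk-1* themselves, and the cutoff of 4 is the transcript count of *mlk-1*. The shares of 13.75% and 4.62% are therefore not an independent comparison, and their difference was not tested. At least 10 transcripts were listed for 92 protein-coding genes (0.460%). F35F11.4 lies inside the span of *hlh-30*, as does a further ncRNA gene, W02C12.4. Of the 7 promoter peaks that lay nearest to a protein-coding gene and were annotated to another gene, that of *hlh-30* was the single one with the annotated gene inside the nearest one. The 136 bp therefore refer to the start of 1 of several *hlh-30* transcripts, and the table places the same peak in the promoter of an RNA gene within *hlh-30*. The *wdr-23* gene has D2030.8 and the synaptic signalling gene *aex-1* as neighbours, and *mlk-1* overlaps *cwp-4* and holds the ncRNA gene Y58A7A.9. No listed peak named any of D2030.8, *aex-1* and *cwp-4* as its nearest gene. This is the usual case, since 1.28% of all protein-coding genes were so named.

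Each of the 3 was the only listed peak with its gene named as nearest. The nearest listed peak to that of *hlh-30* was 19.2 kb away, centre to centre, with W02C12.2 as its nearest start. It was annotated to intron 19 of 25 of the C-type lectin gene *clec-78*, the gene next to *hlh-30* in the gene table. On the other side the next one, nearest to *ell-1*, was 379 kb away. For *wdr-23* the next peaks were nearest to T25G3.1 (45.2 kb) and F27D4.10 (117 kb). For *mlk-1* they were nearest to the chemoreceptor gene *srsx-9* (96.9 kb) and to Y49G5B.1 (165 kb). The median nuclear peak had its nearest listed neighbour at 81.5 kb (quartiles 25.3 and 179 kb), so all 3 gaps lay between the quartiles or, for *hlh-30*, below the lower one. Peak names are numbered up to 1645 while 365 are listed. The *hlh-30* peak has number 864 beside listed neighbours 862 and 867, *wdr-23* has 134 beside 131 and 136, and *mlk-1* has 1101 beside 1100 and 1104. Between 0 and 2 numbers are thus missing on either side of each, and the positions of those peaks were not analysed here.

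Most pathway partners of the 3 regulators had no listed peak. Of all 19983 protein-coding genes in the gene table, 255 (1.28%) were named as nearest to a listed peak. The 4 lists of pathway partners and other stress regulators held 118 distinct genes besides *hlh-30*, *wdr-23* and *mlk-1*. Of these, 2 were so named (1.69%), a share near that background. Around HLH-30, 0 of 37 genes had one, including the autophagy genes *lgg-1*, *bec-1*, *unc-51* and *atg-18*, the TOR kinase gene *let-363* and the nuclear export gene *xpo-1*. Around WDR-23, 0 of 25 had one, including *skn-1* itself, the ligase genes *cul-4* and *ddb-1*, and the SKN-1 targets *gcs-1* and *gst-4*. Among 29 other stress regulators, such as *hsf-1*, *daf-16*, *hif-1*, *atfs-1* and *xbp-1*, the count was 0 as well. Since depth and the rule of entry to the list are unknown, absence from the list does not show that a gene carries no 6mA.

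Both of the further genes belonged to the MAP kinase list, in which 2 of 31 genes other than *mlk-1* had a listed peak (6.45%, against 1.28% of all protein-coding genes). The lists were chosen with earlier results known, and this list is set apart because it held both genes. Over all 4 lists the share was 2 of 118 (1.69%), so the 6.45% is not read as an excess. With promoter peaks alone the MAP kinase count was 1 of 31 (3.23%). The 1.28% covers peaks of all classes and is not the background for this count. The matching background was 80 genes nearest to protein-coding promoter peaks, beside 19983 protein-coding genes. None of these counts was tested. The partners closest to MLK-1, namely *mek-1*, *kgb-1*, *vhp-1*, *shc-1* and *max-2*, were not among the 2 genes with a peak. One was *lit-1*, the gene of a Nemo-like kinase that acts in Wnt signalling. Its peak (chromosome III, 13713083 to 13713373) was 291 bp wide, of the promoter class, and 817 bp upstream of the start of NM_001027634, which was also the annotated transcript. It lay 56 bp closer to its start than the *wdr-23* peak did. Its width was close to the lower quartile of promoter peaks (291.5 bp), with 34 of 137 narrower (24.8%, 17.8 to 32.9%), against 8 of 137 for *wdr-23*. The other was *mkk-4*, the gene of the MAP kinase kinase below DLK-1 in the p38-type cascade of synapse formation and axon regeneration. Its peak (chromosome X, 10026233 to 10026645) was 413 bp wide and intergenic, 1422 bp upstream of the start, which is 422 bp beyond the promoter window. All 5 listed peaks of these stress and MAP kinase genes lay upstream of the nearest start, at 136, 549, 817, 873 and 1422 bp. Upstream was also the more common side in the whole list, with 105 of 138 promoter peaks (76.1%) and 206 of 364 nuclear peaks (56.6%). It was more common still among promoter peaks nearest to protein-coding genes. Besides the *wdr-23* peak, 74 of the 80 others of that kind lay upstream.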

How the data were processed

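One deposited list of peaks of genomic DNA was used. Per the submitters' processing notes, MACS2 2.1.0, Bowtie2 2.2.6, Trimmomatic 0.35 and Picard were named, with no role given, beside the build ce10. Per the file headers, the deposited positions and signed distances to the nearest start are in bp. How peaks were annotated, and how they entered the list, is not given in the sources used here. Width was end minus start plus 1. Each peak was ranked by the share of other peaks with a lower value, with exact 95% intervals, and the rank script was tested on simulated data. Transcripts were assigned to genes through RefSeq (WBcel235), whose coordinates were not printed. It matched 361 of 365 nearest genes, 246 of 285 annotated transcripts and the 3 genes described. The genes and the 4 lists of pathway partners and other stress regulators were chosen with earlier results of these data known, and no test was run. One list name had no match. The text names those 3 genes, list genes with a peak, adjacent listed peaks, annotated genes and the 3 most similar promoter peaks per gene. List genes without a peak, gene neighbours and neighbours in width are named as examples. Ranks among other sets of peaks were alternatives. Python 3.11.15, pandas 2.3.3, SciPy 1.17.1 and Matplotlib 3.10.9 were used.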

Additional observations from a re-analysis of the deposited data

How the results depend on the processing

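Of 28 alternative values, 21 stayed within the 95% interval of the reported share or within 1.5 times the reported count, among them all 9 width ranks of *hlh-30*, *wdr-23* and *mlk-1*. Part of this agreement was built in. The list counts here include the 3 chosen genes, and the set of promoter peaks by distance is 123 of the same 138 peaks. The sets of protein-coding promoter peaks and of all nuclear peaks also share peaks with the 138. A list count of 0 cannot change when only promoter peaks are kept. Without *mlk-1*, the MAP kinase count went from 2 to 1 of 31 in both alternatives, a change beyond 1.5 times. The share of peaks closer to their start changed when all upstream nuclear peaks were used in place of promoter peaks, to 47.8% for *wdr-23*, 33.7% for *mlk-1* and 7.32% for *hlh-30*, since that set holds peaks beyond 1000 bp by its construction. Among promoter peaks of protein-coding genes it was 8.11% for *hlh-30*. There 6 of 74 peaks were closer, against 15 of 104 among all upstream promoter peaks, a set that also holds peaks of non-coding genes. The smaller share of protein-coding genes so near a start was not tested. The share of peaks annotated to another gene, 16.3% of promoter peaks, was 24.9% over all nuclear peaks and 8.86% over promoter peaks of protein-coding genes. Tying peaks to genes by the annotated transcript left 0 genes of the autophagy list with a peak, because the *hlh-30* peak is then that of F35F11.4, and it left 2 genes of the MAP kinase list, without *mkk-4*. No paired analysis was possible because no group has a replicate and the prefix shared by all peak names is not explained by the labels. Unknown depth limits every statement on genes without a listed peak.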
